A study of Mus musculus with 4 samples.

Results

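Histone genes were followed in the hearts of 4 mice, from RNA of the free wall of the left ventricle. A gene was taken as a histone gene when its symbol in the deposited count table began with Hist1h to Hist4h, H2af or H3f3, or was H1f0 or H1fx. The table of 38355 genes held 83 such genes, 65 named Hist and 18 of the other names. The 55 with 10 or more counts in at least 1 library were analysed (of 14901 such genes in all), and 49 of them passed the filter for testing (of 14189). The other 28 had fewer than 10 counts in every library, and 17 of those had 0 counts throughout.

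The transgenic mice (TG) carried VSFP2.3, a voltage-sensitive fluorescent protein targeted to heart muscle cells, and the others were wild type (WT). TG 1 was a 35-week male and TG 2 a 19-week female, set against WT 1, a 35-week male, and WT 2, a 19-week female. All 4 had the same parents, and none was treated. The stated question was whether the transgene is toxic to the heart. The sources used here give neither the promoter that drives it nor the strain, and its own RNA was not analysed here. The genotype labels were therefore not checked against the data, and every TG to WT ratio below rests on them. Each TG mouse and the WT mouse of its sex and age are called a pair below.

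Replication-dependent histone genes, to which most of the Hist genes belong, supply the histones that package DNA as it is copied in S phase. Their mRNAs normally end in a conserved stem-loop bound by Slbp instead of a poly(A) tail, and they are degraded when DNA synthesis stops. Variant histones such as H3.3, H2A.Z and H1.0 are made from separate genes with ordinary polyadenylated mRNAs and are deposited throughout the cell cycle, also in cells that no longer divide, as most adult heart muscle cells do not. Some Hist genes are also known to give longer polyadenylated transcripts in differentiated tissue.

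The stem-loop is shown for members whose values are described below, because it is the mark of the replication-dependent class. GENCODE vM21 transcripts (GRCm38) were searched over their whole length, on the sense strand, for the 16-base histone stem-loop motif. The motif was found in 42 of the 81 histone genes with a match in that annotation. It was in 28 of the 41 analysed Hist genes that have a coding model, and 8 of the 13 without it have a model that ends at the stop codon itself. Of 58797 protein-coding transcripts of the mouse, 87 (0.148%) held it. In these sites, given 5′ to 3′ with 5 bases on each side, capitals mark the arms of the stem and lower case between them the loop.
Hist1h1c, linker histone H1.2, chr13:23739507-23739532 (plus strand): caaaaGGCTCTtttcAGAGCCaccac
Hist1h1e, linker histone H1.4, chr13:23621777-23621802 (minus strand): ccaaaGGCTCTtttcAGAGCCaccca
Hist1h2bb, an H2B gene, chr13:23747198-23747223 (plus strand): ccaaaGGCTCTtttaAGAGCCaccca
Hist1h2bg, an H2B gene, chr13:23571838-23571863 (plus strand): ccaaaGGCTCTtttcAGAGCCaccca
Hist1h4i, an H4 gene, chr13:22040961-22040986 (minus strand): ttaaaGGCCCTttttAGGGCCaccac
Hist2h4, an H4 gene, chr3:96262934-96262959 (minus strand): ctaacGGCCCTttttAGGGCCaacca
Hist4h4, an H4 gene, chr6:136803993-136804018 (minus strand): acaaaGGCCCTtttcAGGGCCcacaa
H2afx, the H2A variant of the DNA damage response, chr9:44335235-44335260 (plus strand): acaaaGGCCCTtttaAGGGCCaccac
Of the genes shown, the H1 and H2B genes have arms that begin GGCTCT, and the H4 genes and H2afx arms that begin GGCCCT. Hist1h4b and Hist1h4j, which are not shown, have a further form that begins GGTCCT. How far the transcript model goes on after the stem-loop differed far more than the stem-loop itself. The model ended 23 bases later in Hist1h2bb and 155 bases later in Hist1h2bg, against 840 in Hist1h1c, 1257 in Hist2h4 and 2445 in Hist4h4. H2afx, named as a variant, carried the stem-loop too and went on for 822 bases.

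Promoters are shown for 3 genes on chromosome 13 whose TG to WT ratio differed between the pairs, and for Hist1h1c as the histone gene of highest CPM, in the bases before the start of the gene from the RefSeq table for GRCm38.p6, on the strand of the gene. Capitals mark the letters CCAAT or ATTTGCAT on either strand (so also ATTGG and ATGCAAAT), AAACACA on either strand, and TATAAA on the sense strand.
Hist1h1b, H1.5, chr13:21780626-21780875 (minus strand): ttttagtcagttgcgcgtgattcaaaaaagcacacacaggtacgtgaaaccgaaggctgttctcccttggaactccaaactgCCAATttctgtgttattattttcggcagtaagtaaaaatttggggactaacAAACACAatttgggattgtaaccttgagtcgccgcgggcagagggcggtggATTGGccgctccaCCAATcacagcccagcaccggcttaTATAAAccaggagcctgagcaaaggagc
Hist1h2bb, chr13:23746484-23746733 (plus strand): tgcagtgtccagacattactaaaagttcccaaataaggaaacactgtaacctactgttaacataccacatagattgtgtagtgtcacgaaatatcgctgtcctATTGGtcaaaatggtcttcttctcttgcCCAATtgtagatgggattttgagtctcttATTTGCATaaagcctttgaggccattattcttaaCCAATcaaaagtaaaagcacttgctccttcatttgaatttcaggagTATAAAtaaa
Between the starts of Hist1h2bg and Hist1h2ae, which face away from each other, chr13:23571221-23571399 (plus strand): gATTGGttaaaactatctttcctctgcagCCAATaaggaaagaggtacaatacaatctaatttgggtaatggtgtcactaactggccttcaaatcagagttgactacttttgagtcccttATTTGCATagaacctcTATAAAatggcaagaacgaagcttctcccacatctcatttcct
Hist1h1c, chr13:23738557-23738806 (plus strand): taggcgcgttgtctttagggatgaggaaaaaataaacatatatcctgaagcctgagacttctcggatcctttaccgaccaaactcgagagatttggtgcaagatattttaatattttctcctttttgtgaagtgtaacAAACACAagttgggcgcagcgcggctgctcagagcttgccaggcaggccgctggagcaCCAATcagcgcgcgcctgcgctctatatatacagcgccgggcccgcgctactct
Over 49 RefSeq windows of 48 analysed members (250 bases before to 50 after the start), CCAAT was present in 5 of 5 H1, 10 of 10 H2A, 11 of 11 H2B and 5 of 5 H3 windows, but in 3 of 10 H4 windows. All 32851 mouse promoter windows of this length held it in 37.41%. The octamer ATTTGCAT, known as a site of Oct-1 in H2B genes, was in 7 of 11 H2B and 5 of 10 H2A windows, beside 1.74% of all promoters. AAACACA, known as the H1 box, was in 4 of 5 H1 windows, beside 7.18%. TATAAA was in 4 of 5 H1, 6 of 10 H2A, 3 of 11 H2B, 1 of 5 H3 and 6 of 10 H4 windows, beside 8.32%. Genes that face away from each other share these letters, so the windows are not independent, and a match is a match of letters only.

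Depth was alike in the 4 libraries, at 14860759 and 14158440 gene counts in TG 1 and TG 2, against 15498935 and 16762713 in WT 1 and WT 2. Histone genes took 0.0456% and 0.0597% of these counts in TG 1 and TG 2, against 0.0662% and 0.0496% in WT 1 and WT 2. Levels are in CPM, reads per 1e6 counted after TMM scaling. A count of 0 is compatible with 3 counts (0.182 to 0.213 CPM, counting error only). The tissue label matched its defining markers: 14 cardiomyocyte genes summed to 227345 and 150911 CPM in TG hearts, against 145936 and 192621 CPM in WT hearts. The libraries did not fall apart by genotype. By the quasi-likelihood test of edgeR, with p-values adjusted after Benjamini and Hochberg, 0 of 14189 genes differed between TG and WT (99 at an unadjusted p under 0.05, and 3, or 0.0211%, by DESeq2), and 4 differed between males and females. TG 1 and WT 2 stood apart from TG 2 and WT 1 instead, with 386 genes whose ratio of TG to WT was not the same in both pairs. Each group held 2 mice, p-values describe only the spread between these 4 animals, and an exact permutation test of 2 against 2 cannot go below 0.333.

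Summed over all 65 Hist genes, whether or not they passed a filter, the level was 262 and 312 CPM in TG 1 and TG 2, against 356 and 296 CPM in WT 1 and WT 2. The 18 variant and other genes summed to 220 and 249 CPM in TG 1 and TG 2, against 269 and 236 CPM in WT 1 and WT 2. In both sums the groups overlapped, and WT 1 was the highest library and TG 1 the lowest. Of the 55 analysed genes 12 had both TG hearts below both WT hearts and 1 had both above, beside 11% and 10.2% of all genes with as many counts. The means were 287 ± 35.2 CPM in TG and 326 ± 42.0 CPM in WT for the Hist genes, and 234 ± 20.9 CPM in TG and 252 ± 23.0 CPM in WT for the others (SD, n = 2 each).

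Among linker histones, Hist1h1c had 94.3 and 90.1 CPM in TG 1 and TG 2, against 100.1 and 100.4 CPM in WT 1 and WT 2. It had the highest CPM of the histone genes. H1f0, the replication-independent H1.0 of cells that have left the cycle, had 70.0 and 72.4 CPM in TG hearts, against 86.0 and 74.7 CPM in WT hearts. Per kilobase of annotated exon the 2 stood first and second, with means over the 4 libraries of 61.7 and 36.9 CPM per kb. Both TG hearts were below both WT hearts for these 2 genes, but neither gene was called. The log2 fold change was -0.12 ± 0.13 for Hist1h1c and -0.17 ± 0.15 for H1f0 (SE, edgeR adjusted p = 1.00 for each). Hist1h1e had 14.2 and 22.1 CPM in TG hearts, against 23.6 and 17.02 CPM in WT hearts. Hist1h1d, H1.3, had 6.83 and 10.2 CPM in TG hearts, against 9.30 and 10.9 CPM in WT hearts, so that the groups overlapped for both. The exons of Hist1h1e overlap those of Hist1h2be on the same strand, and their counts cannot be fully told apart.

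**Figure D1:**
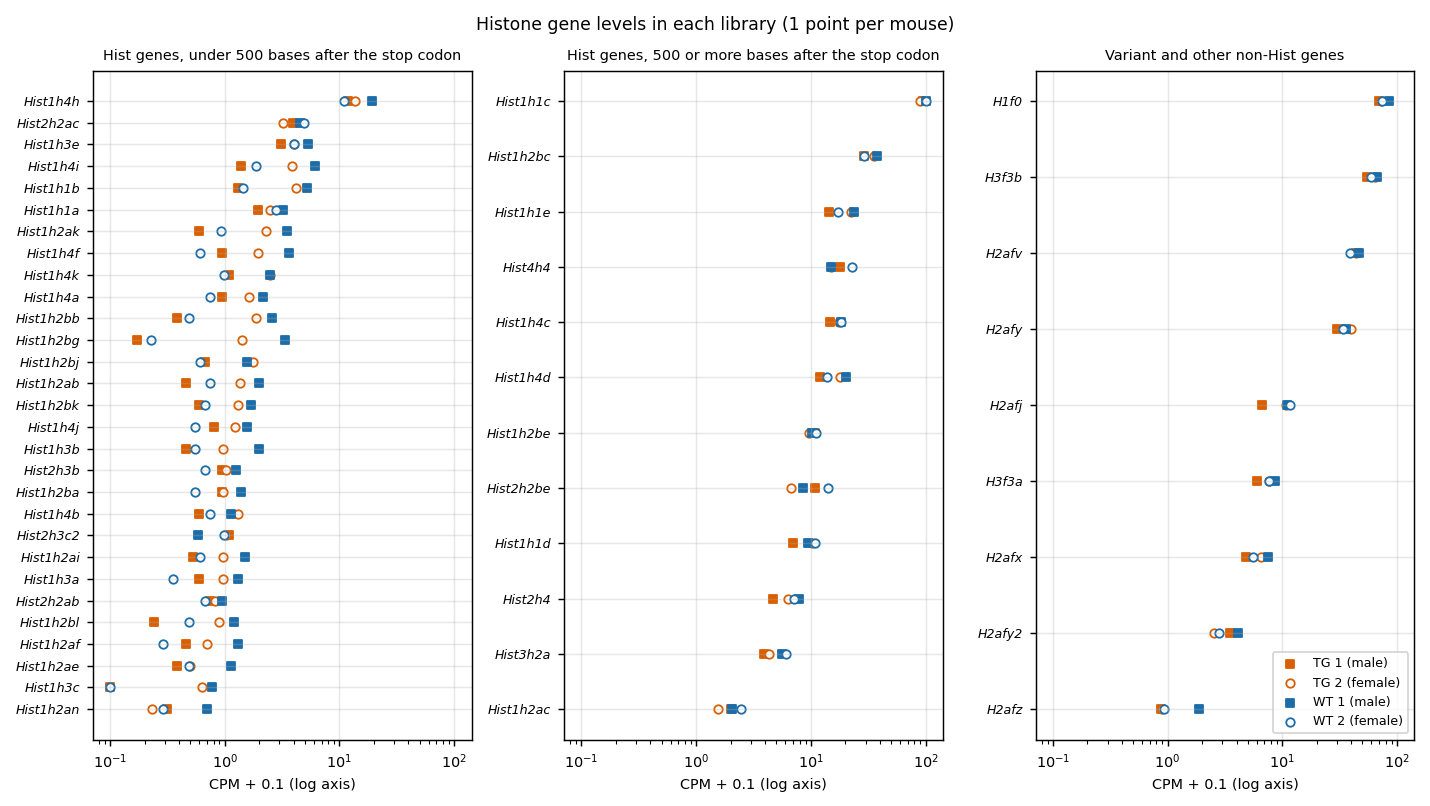
Levels of 50 analysed histone genes in each library, 1 point per mouse, on a log axis of CPM + 0.1, with filled squares for males and open circles for females. In the left panel (29 genes with under 500 annotated bases after the stop codon) TG 2 and WT 1 lie to the right of TG 1 and WT 2 for most genes; in the other panels (12 Hist genes with longer models, 9 variant genes) the 4 points lie close together.

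The H3.3 genes encode one protein, which replaces H3 outside S phase. H3f3b had 54.5 and 64.3 CPM in TG 1 and TG 2, against 66.5 and 59.0 CPM in WT 1 and WT 2. H3f3a had 5.97 and 7.57 CPM in TG hearts, against 8.63 and 7.61 CPM in WT hearts, and an antisense gene, H3f3aos, overlaps it. Per kilobase the means were 20.5 CPM for H3f3b and 2.13 CPM for H3f3a. The groups overlapped for H3f3b, and for H3f3a both TG hearts were just below both WT hearts.

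Of the H2A variants, H2afv (H2A.Z.2, a variant at promoters) had 43.9 and 44.1 CPM in TG hearts, against 46.9 and 39.2 CPM in WT hearts. H2afz, the gene of the sister protein H2A.Z.1, had only 11 and 12 counts in TG hearts, against 29 and 13 in WT hearts. Of its 50-base windows 64.6% were found in no other annotated gene, so some of its reads could match elsewhere. H2afy, macroH2A1, a large H2A variant of repressed chromatin, had 29.7 and 39.8 CPM in TG hearts, against 35.8 and 33.8 CPM in WT hearts. Its relative H2afy2 (macroH2A2) had 3.41 and 2.46 CPM in TG hearts, against 4.01 and 2.69 CPM in WT hearts, and shares exon positions with Aifm2. For H2afy TG 2 was highest and TG 1 lowest, while for H2afy2 both TG hearts were below their pair mates. H2afx had 4.77 and 6.38 CPM in TG hearts, against 7.42 and 5.44 CPM in WT hearts. H2afj, a histone H2A gene outside the clusters, had 6.54 and 10.7 CPM in TG hearts, against 10.9 and 11.6 CPM in WT hearts. The groups overlapped for H2afv, H2afy, H2afy2 and H2afx but not for H2afz, where TG 2 and WT 2 were nearly level, nor for H2afj, whose log2 fold change was -0.38 ± 0.29 (SE, edgeR adjusted p = 1.00). H1fx, the remaining linker variant, had under 10 counts in every library.

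Among core histones of the Hist class, Hist1h4h and Hist1h2bc had the highest means per kilobase, at 29.4 and 28.4 CPM per kb. Hist1h2bc, an H2B gene, had 29.0 and 35.4 CPM in TG 1 and TG 2, against 37.8 and 29.1 CPM in WT 1 and WT 2. The H4 gene Hist1h4c had 14.7 and 17.4 CPM in TG hearts, against 18.2 and 18.4 CPM in WT hearts. Hist1h4d, also H4, had 11.9 and 18.0 CPM in TG hearts, against 20.2 and 13.8 CPM in WT hearts. Hist1h2bc and Hist1h4d were highest in WT 1 and next highest in TG 2. Hist4h4, an H4 gene on chromosome 6 near H2afj, ran the other way, with 18.0 and 14.8 CPM in TG hearts, against 14.8 and 22.7 CPM in WT hearts. Hist2h2be, an H2B gene of the chromosome 3 cluster, likewise had 10.9 and 6.57 CPM in TG hearts, against 8.51 and 14.01 CPM in WT hearts. These 2 genes were highest in WT 2, followed by TG 1. Hist1h4h, an H4 gene with 54.2% of its 50-base windows to itself, had 11.7 and 13.5 CPM in TG hearts, against 19.2 and 10.8 CPM in WT hearts. Hist1h2be, H2B, was nearly level at 10.7 and 9.56 CPM in TG hearts, against 10.1 and 10.9 CPM in WT hearts. Hist2h4 had 4.62 and 6.24 CPM in TG hearts, against 7.72 and 6.97 CPM in WT hearts. Of these 8 genes, the TG and WT values did not overlap for Hist1h4c and Hist2h4, with TG lower.

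No histone gene passed a test of TG against WT. Of 49 tested, 0 were called by edgeR, DESeq2 or limma-voom, and 0 had an unadjusted edgeR p under 0.05, where the background over all genes was 0% called and 0.698% unadjusted. The log2 fold change was above 0 in 7 of the 49, with a median of -0.24 and a range of -1.27 to 0.48. Of all genes 47.5% were above 0, and their median was -0.01. The pairs differed in this: over the 55 analysed genes the median log2 ratio of TG to WT was -0.76 in males and 0.32 in females. As 13 of the 49 passed the filter only through TG 2 and WT 1, the count of 7 is a description. The smallest p was that of Hist3h2a, an H2A gene on chromosome 11. It had 3.84 and 4.18 CPM in TG hearts, against 5.47 and 5.95 CPM in WT hearts, with an edgeR log2 fold change of -0.51 ± 0.25 (SE, unadjusted p = 0.0955 and adjusted p = 1.00 from the fit across all genes). It was lower in TG in both pairs, and its exons overlap those of Trim17 on the same strand. Next to it in that direction came Hist2h4 (-0.43 ± 0.26), Hist2h2ac (-0.41 ± 0.28), H2afj and H2afz (-0.71 ± 0.54). In the other direction the 5 of smallest p were Hist2h3c2 (0.48 ± 0.52), Hist1h2bj (0.18 ± 0.78), Hist2h2bb (0.11 ± 0.55), H2afv (0.03 ± 0.15) and Hist1h4k (0.05 ± 0.69), each smaller than its SE. These values do not show that the genotypes were alike, since among all tested histone genes the SE reached 1.60 on the log2 scale, for the scarce Hist1h2bg.

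No histone gene passed the test of 35-week males against 19-week females either. Of 49 histone genes, 0 were called by edgeR or DESeq2 and 0 had an unadjusted edgeR p under 0.05. Over all genes 0.0282% were called by edgeR, 0.233% by DESeq2, and 3.62% were under that unadjusted p. Log2 fold changes ran from -0.39 for Hist1h1d to 1.22 for Hist1h2bg (edgeR adjusted p = 0.999 for each). Sex and age cannot be told apart here.

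Some histone genes differed in how TG compared with WT in males and in females. The test fitted that difference as the only term, so it equals TG 1 and WT 2 against TG 2 and WT 1. Its value, on the log2 scale, is TG over WT in males less TG over WT in females, as long as neither genotype nor pair adds a difference. Of 49 histone genes, 4 were called, all with TG over WT lower in males, beside 2.72% of all genes (2.37% lower). At an unadjusted p under 0.05 there were 25, of which 23 were lower, beside 16.2% of all genes (8.77% lower). Of the 49, 13 passed the filter only through TG 2 and WT 1, so both counts are given as a description. With 1 library left out, a pair lacks its TG to WT ratio and the fit sets a single library against the rest. DESeq2 called 6 (the same 4 with Hist1h2ak and Hist1h4i, beside 4.95% of all genes), limma-voom 0 (beside 1.84%), and edgeR 0 when any 1 of the 4 libraries was left out.

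Hist1h1b, linker histone H1.5, had 17 and 62 counts in TG 1 and TG 2, against 84 and 21 in WT 1 and WT 2. TG was 0.237 of WT in males (95% interval 0.132 to 0.402, exact binomial, counting error only) and 3.06 times WT in females (1.84 to 5.29). The difference on the log2 scale was -3.69 ± 0.56 (SE, edgeR adjusted p = 0.0334). All of its 50-base windows were found in no other gene.

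Hist1h2bb had 4 and 27 counts in TG 1 and TG 2, against 41 and 6 in WT 1 and WT 2. Its TG to WT ratio was 0.114 in males (0.0297 to 0.315) and 4.67 in females (1.89 to 13.8), a log2 difference of -5.29 ± 0.86 (SE, edgeR adjusted p = 0.0388). Hist1h2bg had 1 and 20 counts in TG 1 and TG 2, against 54 and 2 in WT 1 and WT 2. Its ratios were 0.0217 (0.000539 to 0.126) in males and 10.4 (2.52 to 91.6) in females. The fitted difference of -8.83 ± 1.53 (SE, edgeR adjusted p = 0.0466) rests on those 1 and 2 counts. Both H2B genes passed the filter only through TG 2 and WT 1. Hist1h2ae, the H2A gene that faces away from Hist1h2bg across the stretch printed above, had 4 and 6 counts in TG hearts, against 17 and 6 in WT hearts, and was too scarce to be tested.

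Hist2h2bb had 70 and 196 counts in TG 1 and TG 2, against 179 and 90 in WT 1 and WT 2, with ratios of 0.457 (0.342 to 0.606) in males and 2.26 (1.75 to 2.94) in females. The log2 difference was -2.30 ± 0.39 (SE, edgeR adjusted p = 0.0429). GENCODE vM21 holds its identifier as a long noncoding RNA, so these counts are not known to be of a coding H2B mRNA. For each of the 4 called genes TG 1 was below WT 1 and TG 2 above WT 2, and the adjusted p without 1 library ranged from 0.0620 to 0.337.

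Hist genes with short and with long transcript models after the stop codon differed in their summed levels, with overlap between single genes. The difference between pairs was -1.15 for the long-model Hist1h4d and -1.10 for Hist1h1e, but -0.54 for the short-model Hist1h1a and 0.38 for Hist2h2ac. The mark of 500 bases between short and long models was chosen after the values were seen and is a description, with no test. Hist1h4c lies just inside the long group with 503 bases and Hist1h4j just outside with 430. All 44 short-model Hist genes, with no filter, summed to 35.1 and 58.7 CPM in TG 1 and TG 2, against 83.2 and 37.2 CPM in WT 1 and WT 2. The 15 long-model genes summed to 221 and 236 CPM in TG 1 and TG 2, against 258 and 252 CPM in WT 1 and WT 2. Hist1h1c alone gave 94.3 and 90.1 CPM of these sums in TG hearts, against 100.1 and 100.4 CPM in WT hearts. TG over WT was thus 0.422 in males and 1.58 in females for the short models, beside 0.857 and 0.935 for the long models. Short models made up 13.7% (95% exact binomial interval 12.6 to 14.9) and 19.9% (18.7 to 21.1) of the counts of both classes in TG 1 and TG 2, against 24.4% (23.3 to 25.6) and 12.8% (11.9 to 13.8) in WT 1 and WT 2. These intervals cover counting error only, not the spread between mice.

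**Figure D2:**
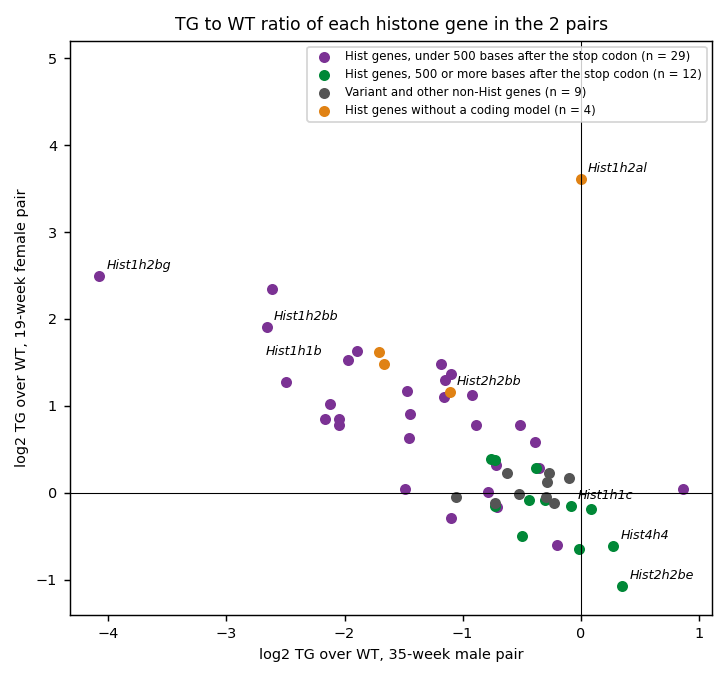
The log2 TG to WT ratio of each analysed histone gene in the 35-week male pair (x axis) and the 19-week female pair (y axis), with a prior count of 2. Short-model Hist genes fill the upper left, with TG below WT in males and above WT in females, while long-model and variant genes lie near the origin or below it.

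Gene by gene, 25 of the 29 analysed short-model genes had TG below WT in males and above WT in females, as did 3 of 12 long-model and 4 of 9 variant genes. Over all 14901 genes with as many counts the share was 32%. The median log2 ratio of TG to WT was -1.18 in males and 0.85 in females for the short models, and -0.34 and -0.16 for the long models. For the variant genes it was -0.30 and -0.01, and for all genes -0.01 and -0.01. A log2 ratio below -1 in the male pair was found in 19 short-model genes and 0 long-model genes, beside 6.92% of all genes. One above 1 in the female pair was found in 13 and 0, beside 6.05%. Of the short-model genes, 11 passed the filter for testing only through TG 2 and WT 1. Hist1h2af, Hist1h2ae, Hist1h3c and Hist1h2an were not tested, and were analysed only because they reached 10 counts in WT 1. The gene counts above therefore describe the members and support nothing further. Hist4h4, Hist1h2be and Hist2h2be were the 3 members with TG above WT in males and below it in females, and all have long models.

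Other short-model genes likewise had TG below WT in males and above WT in females. Hist1h4i had 18 and 57 counts in TG 1 and TG 2, against 99 and 28 in WT 1 and WT 2 (edgeR adjusted p = 0.0769 for the difference between pairs). Hist1h2ak, an H2A gene, had 7 and 33 counts in TG hearts, against 56 and 13 in WT hearts (edgeR adjusted p = 0.0728). Hist1h4f had 12 and 28 counts in TG hearts, against 58 and 8 in WT hearts. Exceptions were Hist2h2ac, with 54 and 47 counts in TG hearts, against 73 and 75 in WT hearts, and Hist1h1a, H1.1, with 26 and 36 in TG hearts, against 51 and 42 in WT hearts. Both were lower in TG in each pair. Hist2h3c2, an H3 gene, had 14 counts in both TG hearts, against 8 and 14 in WT hearts.

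**Figure D3:**
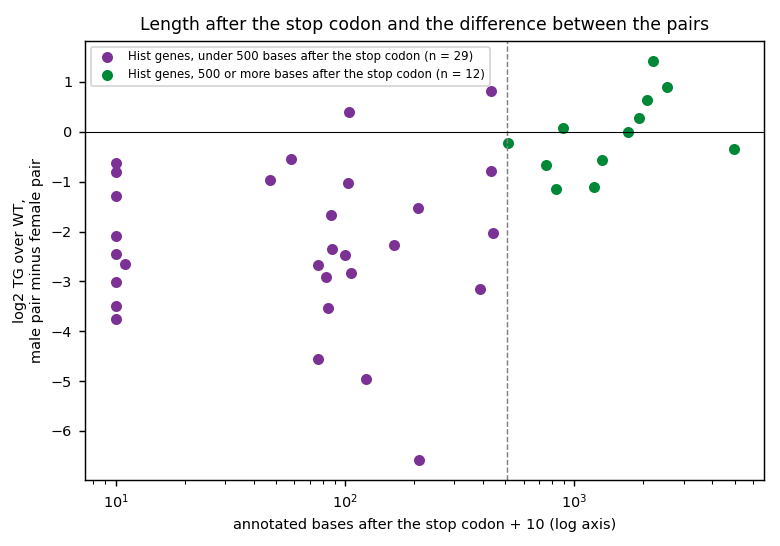
Difference of the log2 TG to WT ratio, male pair minus female pair (y axis), against the annotated bases after the stop codon plus 10 (x axis, log scale), for 41 analysed coding Hist genes. Most points left of the dashed line at 500 bases lie well below 0, while the 12 to its right lie closer to 0, on both sides of it.

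Short models also differed from long ones in level and in how much sequence they share with other genes. A median of 43.0% of their 50-base windows was found in no other annotated gene, against 87.8% for the long models. The order of libraries was alike on either side of 50% unique windows: 12 of the 13 short-model genes at or above it had TG below WT in males and above WT in females, with median log2 ratios of -1.49 and 1.12. Of the 16 below it 13 did, with medians of -1.17 and 0.78. Both sides held genes that passed the filter only through TG 2 and WT 1, such as Hist1h2bb above 50% and Hist1h2bj below. The split is therefore a description, and the part of shared sequence in the order was not tested. Only 4 short-model genes averaged 50 or more counts, and 3 of these showed that order, with medians of -0.75 and 0.16. Of the 11 long-model genes with as many counts, 3 did. The part of low counts in the difference between the classes was not tested.

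By histone family, the median log2 ratio in males and in females was -1.31 and 1.03 for 12 H2B genes and -0.89 and 0.78 for 11 H4 genes. It was -0.94 and 0.68 for 6 H3 genes, -1.10 and 0.29 for 11 H2A genes and -0.71 and -0.09 for 5 H1 genes. The H2A genes include the pseudogene Hist1h2al, and the H2B genes Hist2h2bb, held as a noncoding RNA. Of these genes 7 H2B, 3 H2A, 2 H3 and 1 H4 passed the filter only through TG 2 and WT 1. The families were not matched for model length either, so the medians are a description. Of the analysed Hist genes 34 lie on chromosome 13, where 26 had TG below WT in males and above it in females, and 7 lie on chromosome 3, where 3 did. Promoter motifs were found in both classes: CCAAT was in 22 of 28 short-model and 9 of 10 long-model windows, and ATTTGCAT in 7 of 28 and 3 of 10. TATAAA was in 16 of 28 short-model and 4 of 10 long-model windows, and AAACACA in 3 of 28 and 3 of 10.

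Of 17 listed genes that transcribe and process histone mRNA, 16 were tested. By edgeR 0 were called in any of the 3 comparisons, which is near the shares of all genes (0% for genotype, 0.0282% for males against females, 2.72% for the difference between pairs), with median log2 ratios of 0.02 in males and -0.06 in females. Slbp, the stem-loop binding protein, had 9.53 and 10.7 CPM in TG 1 and TG 2, against 11.01 and 10.7 CPM in WT 1 and WT 2. Npat, the activator of histone gene transcription in S phase, had 22.1 and 27.2 CPM in TG hearts, against 27.7 and 21.2 CPM in WT hearts. The first of these barely varied between libraries. Lsm10, a protein of the U7 particle that directs histone 3′ end processing, had 11.2 and 9.03 CPM in TG hearts, against 11.7 and 8.96 CPM in WT hearts. Its partner Lsm11 had 14.7 and 12.6 CPM in TG hearts, against 12.3 CPM in both WT hearts. Casp8ap2, FLASH, which acts with Lsm11 at the histone 3′ end, had 23.7 and 29.1 CPM in TG hearts, against 26.2 and 22.5 CPM in WT hearts. Npat and Casp8ap2 had TG below WT in males and above WT in females, like most short-model genes. Their differences were much smaller, and they were not called. Of 28 histone chaperones 27 were tested and 0 were called, likewise near those shares.

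Several genes of dividing cells and most markers of leukocytes had TG below WT in males and above WT in females, like most short-model histone genes. Of 13 tested mitosis genes 2 were called by edgeR with TG over WT lower in males, and 0 with it higher, beside 2.37% of all genes called lower. Mki67, the Ki-67 protein of cycling cells, had 7.82 and 20.1 CPM in TG 1 and TG 2, against 25.6 and 8.76 CPM in WT 1 and WT 2 (log2 difference -2.92 ± 0.37 (SE), edgeR adjusted p = 0.0208). Top2a, the topoisomerase that untangles replicated DNA, had 5.69 and 11.6 CPM in TG hearts, against 16.8 and 4.16 CPM in WT hearts (-3.07 ± 0.53 (SE), adjusted p = 0.0456). The median log2 ratios of the mitosis list were -1.42 in males and 0.95 in females, beside -1.18 and 0.85 for the short-model histone genes. The summed level of all 16 mitosis genes was 189 and 111 CPM in TG hearts, against 138 and 83.1 CPM in WT hearts, a different order that came with 162 CPM of Cenpf in TG 1. For 28 genes of DNA replication and S phase the median log2 ratios were -0.32 in males and 0.12 in females, and of the 27 tested 0 were called.

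Lymphocyte markers summed to 2.21 and 43.5 CPM in TG 1 and TG 2, against 43.2 and 3.71 CPM in WT 1 and WT 2, and 8 of 11 tested were called with TG over WT lower in males, beside 2.37% of all genes. The 6 of smallest p, all T or natural killer cell genes, were Nkg7, Lck, Cd3g, Cd3e, Cd4 and Trac. Cd3e, a chain of the T-cell receptor complex, had 4 and 64 counts in TG hearts, against 76 and 8 in WT hearts. With sums this low in TG 1 and WT 2, lymphocyte markers such as Cd3e passed the filter only through TG 2 and WT 1. The 8 of 11 called are therefore a description. Cd8a, Gzma and Trbc1 were at 0 counts in TG 1. Macrophage markers summed to 417 and 1341 CPM in TG hearts, against 1673 and 429 CPM in WT hearts, and 11 of 16 were called in that direction, beside the same 2.37%. The 6 of smallest p were Cd74, Ctss, C1qb, Cx3cr1, C1qc and Lyz2. Cd74, the chaperone of antigen-presenting MHC class II, had 35.1 and 497 CPM in TG hearts, against 573 and 45.2 CPM in WT hearts. Of 14 cardiomyocyte, 11 fibroblast and 4 erythroid markers tested 0 were called, and of 11 endothelial markers 1 was, in the other direction. This was Vwf, von Willebrand factor, with 92.2 and 56.2 CPM in TG hearts, against 51.7 and 83.7 CPM in WT hearts. The sums of these lists were not level. Cardiomyocyte markers, with the sums given above, were higher in TG 1 and WT 2 than in TG 2 and WT 1. Endothelial markers had that order too, at 1564 and 1434 CPM in TG hearts, against 1314 and 1730 CPM in WT hearts. Erythroid markers summed to 236 and 142 CPM in TG hearts, against 719 and 183 CPM in WT hearts. Fibroblast markers ran from 1977 CPM in WT 1 to 2165 CPM in WT 2. The part of these cells in the histone values was not tested, and in bulk RNA fewer cells of a type and less RNA per cell cannot be told apart.

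**Figure D4:**
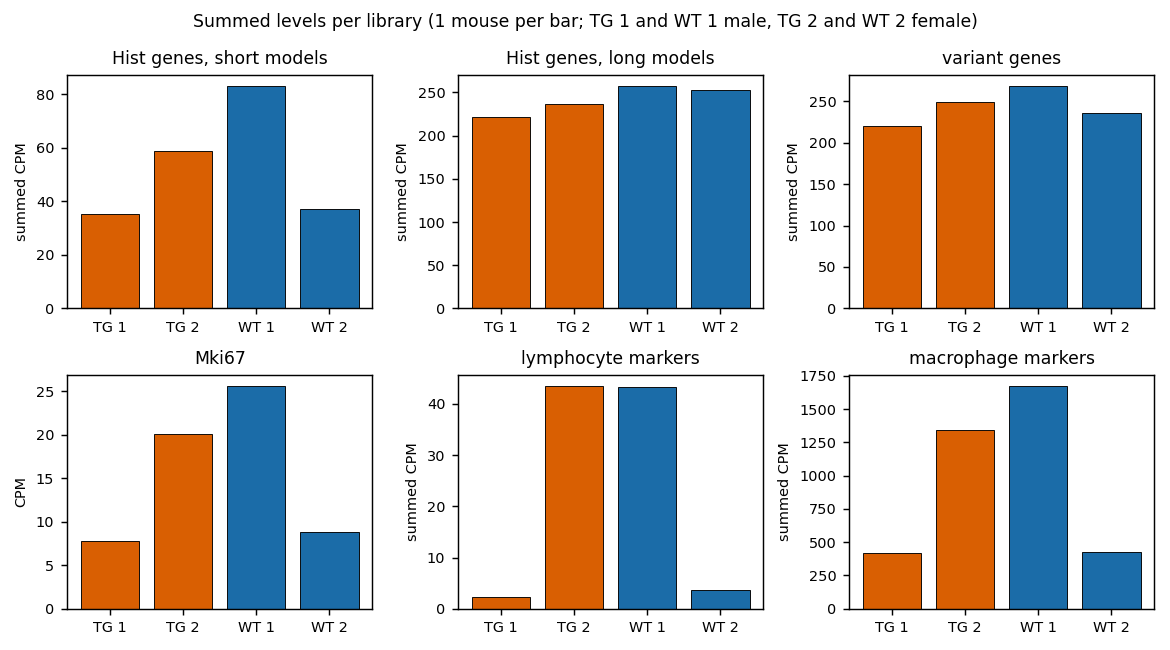
Level in each library (CPM, 1 mouse per bar) of short-model Hist genes, long-model Hist genes, variant genes, Mki67, lymphocyte markers and macrophage markers. Short-model genes, Mki67 and both marker sums are higher in TG 2 and WT 1 than in TG 1 and WT 2; the long-model sum is 221 and 236 CPM in TG, against 258 and 252 CPM in WT.

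Several histone genes could not be followed at all. Of 10 coding Hist genes at 0 counts in all 4 libraries, 9 had under 20% of their 50-base windows to themselves, with a median of 6.70%. Hist2h2aa1, Hist2h2aa2 and Hist2h3c1 were among them, and none of these 3 has a window of its own. The sources used here do not say how reads that match several genes were counted, so a count of 0 in such a gene gives no level. Short of that, Hist1h2al had 0 and 22 counts in TG 1 and TG 2, against 0 in both WT hearts. It is annotated as a processed pseudogene, 32.4% of its windows are its own, and it was not tested.

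**Figure D5:**
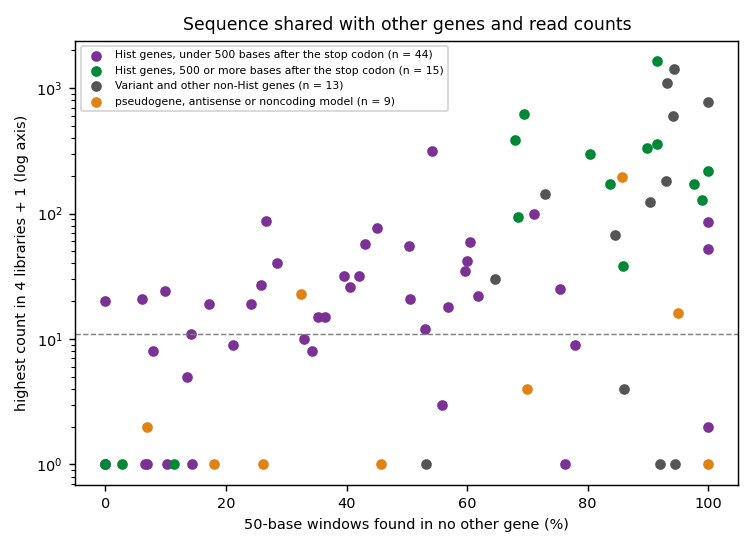
Highest count in the 4 libraries plus 1 (y axis, log scale) against the share of 50-base windows found in no other annotated gene (x axis), for 81 histone genes with a GENCODE model. The dashed line marks 10 counts; most genes at 0 counts lie at the left, and the genes with the highest counts lie right of 60%.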

How the data were processed

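The authors deposited 2 tables, raw counts of reads by Ensembl gene and a normalized signal, which equals the counts divided by 1 factor per library and was not used for the tests. Per the labels, libraries came from the TruSeq Stranded Total RNA kit, which also takes RNA without a poly(A) tail. Per the submitters' processing notes, STAR 2.3.0 and HTSeq 0.6.1 were among the tools, with CASAVA 1.8.2, FastQC 0.10.0 and DESeq, on mm10. The sources used here do not give the annotation release, the strand setting or the treatment of reads with several matches.

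Raw counts went into edgeR 4.0.16 under R 4.3.3 (filterByExpr with a minimum count of 10, TMM scaling, quasi-likelihood test, Benjamini-Hochberg adjustment over 14189 genes, threshold 0.05). CPM values use TMM-scaled totals, and log2 ratios within a pair a prior count of 2. The SE beside an edgeR value is its absolute log2 value divided by the square root of the F statistic of that test. The test of the difference between pairs leaves genotype and pair out of the model, since with 4 libraries no residual degree of freedom would remain. Alternatives were limma-voom (limma 3.58.1) and DESeq2 1.42.0. Models came from GENCODE vM21 (GRCm38, the assembly of mm10), matched by identifier for 53 of the 55 analysed genes. Replicate numbers pair the mice by sex and age, but deviations of same-numbered libraries correlated at -0.449, so no block was used.

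Members, lists and tests were chosen with earlier results of these data known. Named are all tested variant genes, the 12 Hist genes of highest mean CPM, called members, the 5 of smallest p in each direction for TG against WT, called genes of the lists (at most 6 each, by smallest p), and Slbp, Npat, Lsm10, Lsm11 and Casp8ap2. Other genes named, such as Hist1h4b, Hist1h4j, Hist1h1a, Hist1h4i, Hist1h2ak and Hist1h2al, were chosen after their values were seen.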

Additional observations from a re-analysis of the deposited data

Results flagged for a closer look

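For 6 genes TG over WT was not the same in the 35-week males as in the 19-week females, by edgeR's quasi-likelihood test of that difference (log2, male minus female). The values were -3.69 for Hist1h1b, -5.29 for Hist1h2bb, -8.83 for Hist1h2bg and -2.30 for Hist2h2bb among the histone genes, and -3.07 for Top2a and -2.92 for Mki67 among the mitosis genes. In each of them TG 1 was below WT 1 and TG 2 above WT 2. Hist1h2bb and Hist1h2bg passed the filter only through TG 2 and WT 1, where they are high, so their values are a description. By limma-voom none of the 4 histone genes passed (adjusted p of 0.0523 to 0.0880), nor did any by edgeR with 1 library left out (0.0620 to 0.337).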

How the results depend on the processing

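The count of histone genes whose TG to WT ratio differed between the pairs was 4. It was 2 with every gene of 10 or more counts in any library tested, 9 with no filter beyond 1 count, 0 by limma-voom and 0 to 0 with 1 library left out. For all genes that count was 386, and it was 908 with no filter, 703 by DESeq2 and 44 to 366 with 1 library left out (44 without WT 1, 110 without TG 2). For TG against WT it was 0 genes, but 3 by DESeq2 and 0 to 8 with 1 library left out (8 without WT 1). For males against females it was 4, but 7 with no filter, 33 by DESeq2 and 0 to 9 with 1 library left out (9 without TG 2, 0 without each of the others). Histone genes called stayed at 0 in both of these comparisons under each alternative run. With the replicate block 0 genes and 0 histone genes were called for TG against WT. The crossed pairing, added after seeing the data, also called 0 and 0. Some small log2 fold changes for TG against WT reversed when 1 library was left out. They ran from -0.79 to 1.12 for Hist1h2bj, -0.74 to 0.65 for Hist2h2bb, -0.089 to 0.17 for H2afv and -0.71 to 0.92 for Hist1h4k. The summed Hist and variant levels moved by less than the spread between replicates under the other scalings. Calls in Hist1h2bb and Hist1h2bg are limited by counts of 1 to 6 in TG 1 and WT 2. Each fit with 1 library left out sets a single library against the rest, so it is not the same test repeated.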
